A study of Mus musculus with 16 samples.

Results

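Gal encodes galanin, a secreted neuropeptide. It was chosen by its measured cardiotoxin rise in the muscle of sham-operated mice, the largest of 10952 measurable genes. The gene was taken by its symbol, which 1 of the 25697 probes carried, so Gal is 1 gene of the 18117 named on the arrays. Whole hindlimb muscle, called hamstring in the series' design text, was taken from female mice 2 days after surgery and hybridised to 16 Illumina BeadChip arrays, 4 per group. SCI+CDTX mice had a spinal cord injury between thoracic vertebrae 12 and 13 and an injection of cardiotoxin (CDTX), a snake-venom peptide that lyses muscle fibres, into the muscle. SCI+Saline mice had the same cord injury and a saline injection. Sham+CDTX mice had sham surgery and cardiotoxin, and Sham+Saline mice had sham surgery and saline. Per the series' design text, neurogenic heterotopic ossification, which is bone forming in muscle after cord injury, arises in the first of these groups only. Strain, age and cardiotoxin amount are not given in the sources used here.

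Galanin is cut from a longer precursor and acts through the G-protein-coupled receptors Galr1, Galr2 and Galr3. It is best known from neurons: sensory neurons hold little of it at rest and make much more after their axons are cut, and the cytokine Lif, which signals through the shared receptor chain gp130 (Il6st), is a known inducer there. The cell bodies of the neurons that supply a limb muscle lie outside it, in the spinal cord and ganglia, so RNA of whole muscle comes mainly from fibres, connective tissue, vessels, nerve sheath and, after damage, invading blood-derived cells.

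All Gal values rest on a single 50-base probe, ILMN_2776034, listed on the minus strand of chromosome 19 (band 19qA) and starting at base 567 of its reference transcript. Whether that stretch is coding or untranslated was not determined here. Its opening 30 bases are shown because every Gal value is the signal of this sequence, together with those of the probe for Trem2 on chromosome 17, the gene whose levels ran closest to those of Gal. Both are copied from the deposited table in lower case, with no base marked.
Gal: cattctaggctaagaagaatcttctgccaa
Trem2: cccctcctccaccaagacttctgtttctgc
The longest run of identical bases in the same orientation that the whole Gal probe and the whole Trem2 probe had in common was 6 bases. Across the 12 genes most like Gal this run was 4 to 6 bases. The table holds 1 probe with the Gal sequence.

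Gal was among the brighter probes of every cardiotoxin-injected muscle, near the detection limit on 6 of the 8 saline arrays and between these levels on SCI+Saline replicates 2 and 4. In Sham+CDTX muscle the raw intensity was 2914 in replicate 1, 1842 in replicate 2, 2270 in replicate 3 and 1984 in replicate 4. On these arrays 97.2 to 98.5% of all probes were dimmer than Gal. In SCI+CDTX muscle it was 997, 484, 1508 and 1086 in replicates 1 to 4. Replicate 2, the lowest, is an array that the submitters left out of their final analysis, per its label. It was detected as well, with 87.0% of probes dimmer than Gal, against 94.2 to 96.6% on the other three arrays of the group.

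The saline groups were lower and differed in how uniform they were. In SCI+Saline muscle the intensity was 104, 194, 109 and 277 in replicates 1 to 4. Replicates 2 and 4 were detected (detection p of 0 as deposited), whereas replicates 1 and 3 were not (0.232 and 0.0627, against a limit of 0.05). In Sham+Saline muscle it was 105, 91.1, 92.2 and 107, and replicates 1 and 4 passed the detection limit with 0.00125 and 0.0125. All 4 Sham+Saline values lay close to the lowest intensity that counted as detected on any array, 96.6 to 111.9, and their arrays were dimmer as a whole, with a median probe intensity of 94.2 to 100.4 against 104.3 to 114.5 on the other arrays. Each value is a mean over 31 to 48 beads with a standard error of 2.56 to 4.75% of the intensity, while the highest and lowest arrays were 1.58-fold apart in Sham+CDTX and 3.11-fold apart in SCI+CDTX muscle.

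**Figure D1:**
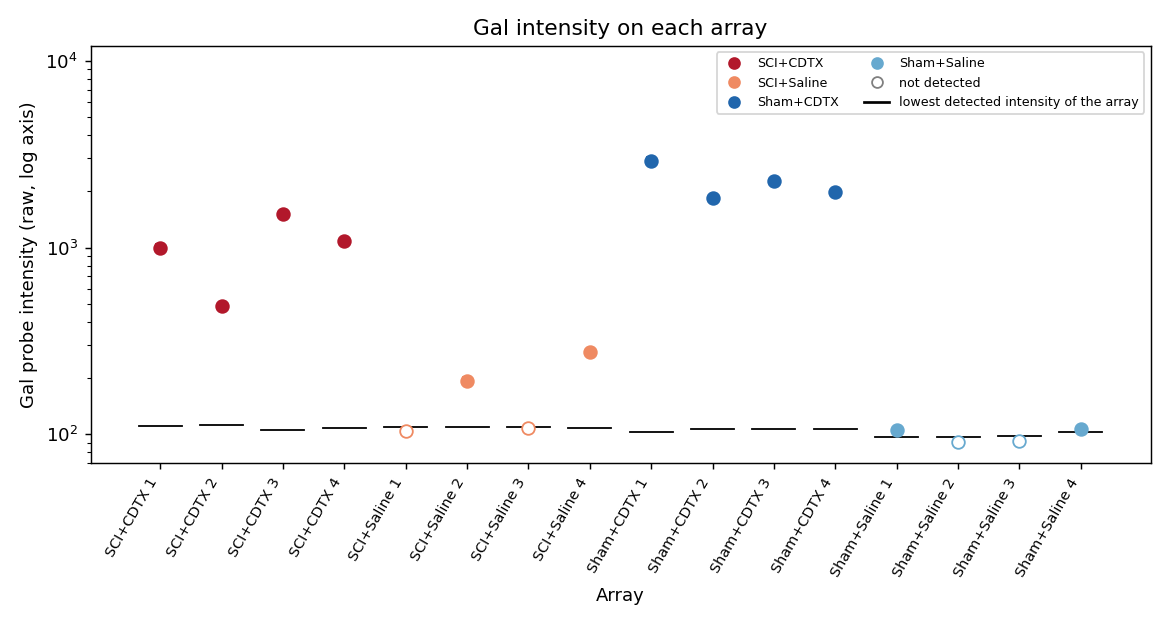
Raw intensity of the Gal probe (log axis) on each of the 16 arrays, with the standard error over beads (smaller than the point on most arrays). Filled points passed the detection limit, open points did not, and black lines mark the lowest detected intensity of that array. The 8 cardiotoxin arrays (484 to 2914) all lie above the 8 saline arrays (91.1 to 277).

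Before the groups were compared, 2 features of the layout had to be set out. All cord-injured samples were on 1 BeadChip and all sham samples on another, so surgery and BeadChip cannot be told apart. On each BeadChip the cardiotoxin samples filled the upper 4 positions and the saline samples the lower 4. A comparison of cardiotoxin with saline therefore lies within 1 BeadChip, but position and injection cannot be told apart. In bulk RNA, more cells of a type and more RNA per cell cannot be told apart either. Nothing in the labels says how many animals each sample came from beyond its replicate number, so the p-values measure the spread between these samples. The number of probes detected per array was 13122 to 13694 in SCI+CDTX, 11555 to 12787 in SCI+Saline, 13221 to 13569 in Sham+CDTX and 11114 to 11850 in Sham+Saline muscle.

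The cardiotoxin comparison in cord-injured mice shares no array with the sham comparison by which Gal was chosen. After background correction and quantile normalization of 15 arrays, without SCI+CDTX replicate 2, the log2 level of Gal was 9.57, 10.40 and 9.83 in SCI+CDTX replicates 1, 3 and 4. It was 4.39, 7.08, 4.62 and 7.54 in SCI+Saline replicates 1 to 4. The groups did not overlap, and 2 of the 4 saline arrays stood between the other saline arrays and the cardiotoxin arrays. The means were 9.93 ± 0.42 (SD, n = 3) and 5.91 ± 1.63 (SD, n = 4). Gal was higher by 4.03 on the log2 scale (SE 0.56, 95% interval 2.84 to 5.21), a 16.3-fold difference (interval 7.18 to 37.0), with a limma adjusted p of 2.04e-05 over all probes tested. The size depends on how background is treated, since 2 of the 4 saline arrays did not detect Gal: it was 2.75 (6.73-fold) with no background correction and 3.27 with a larger offset. In this comparison 22.1% of the genes tested were called higher and 22.2% lower, and Gal had rank 2 of 10952 by size of rise. With all 16 arrays the difference was 3.58. Its exact two-sided permutation p over 4 against 4 arrays was 0.0286, the smallest that the 70 arrangements allow. The lowest SCI+CDTX intensity, in replicate 2, was still 1.75 times the highest SCI+Saline intensity.

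In sham-operated mice the levels were 11.39, 10.65, 10.95 and 10.75 in Sham+CDTX replicates 1 to 4 and 5.54, 4.34, 4.31 and 5.07 in Sham+Saline replicates 1 to 4. The means were 10.93 ± 0.33 and 4.81 ± 0.59 (SD, n = 4 each). The difference, 6.12 (SE 0.52), or 69.5-fold, is the value by which Gal was chosen and is given as a description, with no test. Here 23.7% of genes were called higher and 26.9% lower. The genes next below Gal in this rise that were called and whose groups did not overlap were Gpnmb with 5.92, Spp1 with 5.23 and Trem2 with 5.19. Since 2 of the 4 Sham+Saline arrays did not detect Gal, the size of this difference depends on how background is treated: it was 4.22 with no background correction and 4.98 with a larger offset.

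The order of the group levels was Sham+CDTX, SCI+CDTX, SCI+Saline and Sham+Saline. The upper neighbours differed by -1.001 (SCI+CDTX minus Sham+CDTX, SE 0.56, 95% interval -2.18 to 0.18). That interval uses a spread shared by all 4 groups, to which SCI+Saline adds most. The interval depended on the processing. With only the 2 cardiotoxin groups in the fit it was -1.45 to -0.55, and with no background correction -1.60 to -0.28. With the larger offset it was -1.85 to -0.11 and with all 16 arrays -2.70 to -0.21. It included 0 with median scaling (-2.09 to 0.12) and with each BeadChip normalized separately (-1.94 to 0.46). A trended and robust variance model gave -2.54 to 0.54. The Sham+CDTX arrays took part in the choice of Gal, so this difference is a description, with no test. The intensities of the cardiotoxin groups did not overlap: the lowest Sham+CDTX intensity was 1.22 times the highest SCI+CDTX intensity, and the mean intensities, 2253 ± 476 and 1019 ± 420 (SD, n = 4 each), were 2.21-fold apart. The lower neighbours differed by 1.09 (SCI+Saline minus Sham+Saline, SE 0.52, interval -0.002 to 2.19). With median scaling the interval was 0.12 to 2.17, with all 16 arrays -0.15 to 2.34 and with no background correction -0.09 to 1.14. This difference too is a description, since the Sham+Saline arrays took part in the choice of Gal. The log2 levels of the lower neighbours overlapped. Their difference was 0.55 without SCI+Saline replicate 4, 0.70 without replicate 2 and 1.60 without replicate 1. The cardiotoxin difference in cord-injured mice minus that in sham mice was -2.09 (SE 0.77, interval of the difference -3.70 to -0.48), which is also given with no test, since it contains the choosing comparison. Over all genes 13.8% were called higher and 11.6% lower by limma in this difference of differences.

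Per the authors' deposited table of normalized intensities, which has 15 arrays, the Gal mean of the Sham+CDTX group was 1937, that of SCI+CDTX 1025, that of SCI+Saline 66.6 and that of Sham+Saline 9.4. The order of the groups in the authors' deposited table was that of the levels above.

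A measure of probe behaviour moved with these groups. Over 1535 genes read by at least 2 probes detected on all arrays, the first component of the differences between the probes of a gene, which held 41.2% of their variance, was 0.347 to 0.403 in Sham+CDTX samples and 0.319 in SCI+CDTX replicate 2, against -0.245 to -0.033 in all other samples. The score was also used as a covariate with all 16 arrays. The cardiotoxin difference of Gal was then 3.74 (SE 0.56) in cord-injured and 7.63 (SE 1.03) in sham mice. The difference between the 2 cardiotoxin groups was -2.68 (SE 0.90). Outside SCI+CDTX replicate 2 the score nearly coincides with the Sham+CDTX group. Values and lost calls with this covariate, here and below, therefore rest largely on that 1 array, which the submitters left out.

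**Figure D2:**
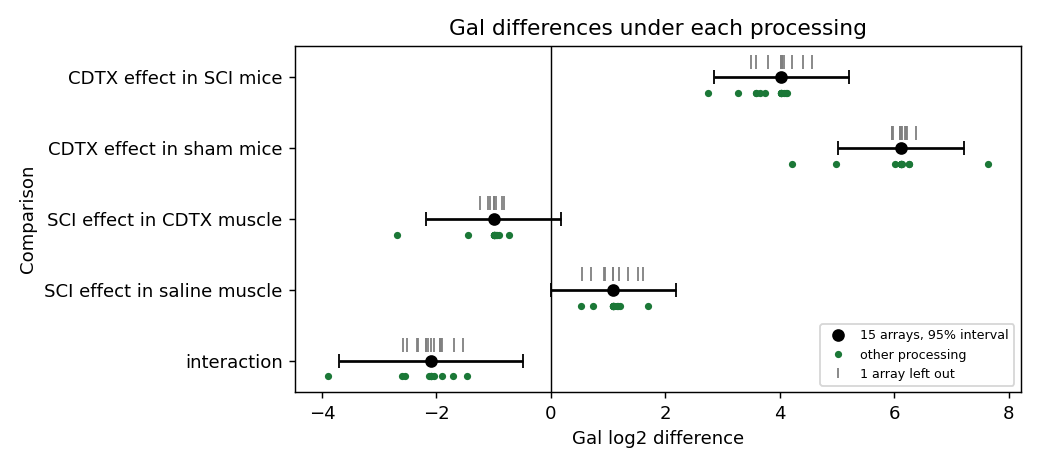
Log2 differences of Gal for the 5 comparisons, as the value over 15 arrays with its 95% interval (black), under the other processing choices (green) and with 1 array left out (grey). The cardiotoxin difference in cord-injured mice, 4.03, keeps its sign throughout, as do the others. The black intervals of both cord injury comparisons reach 0, and those of some other processing choices do not. Both comparisons use arrays by which Gal was chosen and were not tested.

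The gene whose level followed that of Gal most closely over the 15 arrays was Trem2, and several of the next are known from macrophages. Likeness was Pearson's r of log2 levels, computed for the other 10951 genes with 1 probe each. These r are descriptions: the arrays share tissue, group structure and BeadChip, and 541 genes had r over 0.9 and 168 over 0.95. Trem2 is a lipid-sensing receptor of macrophages and had r = 0.994. It was followed by Lpxn, an adaptor protein of the paxillin family (0.990), Rab7b, a lysosomal trafficking GTPase (0.989), and Cotl1, an actin-binding protein (0.989). Next came the innate immune receptor Tlr13 (0.985), the leukocyte surface proteins Cd84 (0.985) and Cd180 (0.983), the tubulin chain Tuba1b (0.983), the interleukin 10 receptor chain Il10ra (0.983), the fatty acid carrier Fabp5 (0.983), LOC100045567 (0.983) and Tmem106a (0.983). Trem2 was first also by Spearman's rho, with 16 arrays, with median scaling and with no background correction, but only 2, 9, 7 and 4 of the 12 genes were again among the 12 under these choices.

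Trem2 showed the Gal pattern array by array. Its log2 level was 9.42, 9.82 and 9.40 in SCI+CDTX replicates 1, 3 and 4 and 10.33, 9.89, 10.10 and 10.02 in Sham+CDTX replicates 1 to 4. It was 4.40, 7.36, 5.31 and 7.86 in SCI+Saline replicates 1 to 4, so that replicates 2 and 4 were the high arrays for both genes. In Sham+Saline replicates 1 to 4 it was 5.58, 4.61, 4.35 and 5.04. By these normalized levels replicate 1 was the highest of that group for Gal and for Trem2, and replicate 4 the second. In raw intensity replicate 4 was slightly above replicate 1 for both (107.0 against 104.9 for Gal, 106.6 against 105.7 for Trem2). The cardiotoxin difference of Trem2 was 3.31 in cord-injured and 5.19 in sham mice, beside 4.03 and 6.12 for Gal.

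The lowest r belonged to Ipmk, an inositol phosphate kinase, with -0.973, and to Cyhr1 (-0.967), the kinase Tlk2 (-0.963), the oxidising enzyme Fmo1 (-0.963), Iqcb1 (-0.962) and Aldh6a1, an enzyme of valine breakdown (-0.959). In all, 160 genes had r under -0.9. Their changes were small beside that of Gal: the difference of Ipmk was -0.54 in cord-injured and -1.05 in sham mice. With median scaling these were -0.21 and -0.24, the r of Ipmk was -0.600 and that of Iqcb1 -0.218, so their place in this order depends on the normalization.

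**Figure D3:**
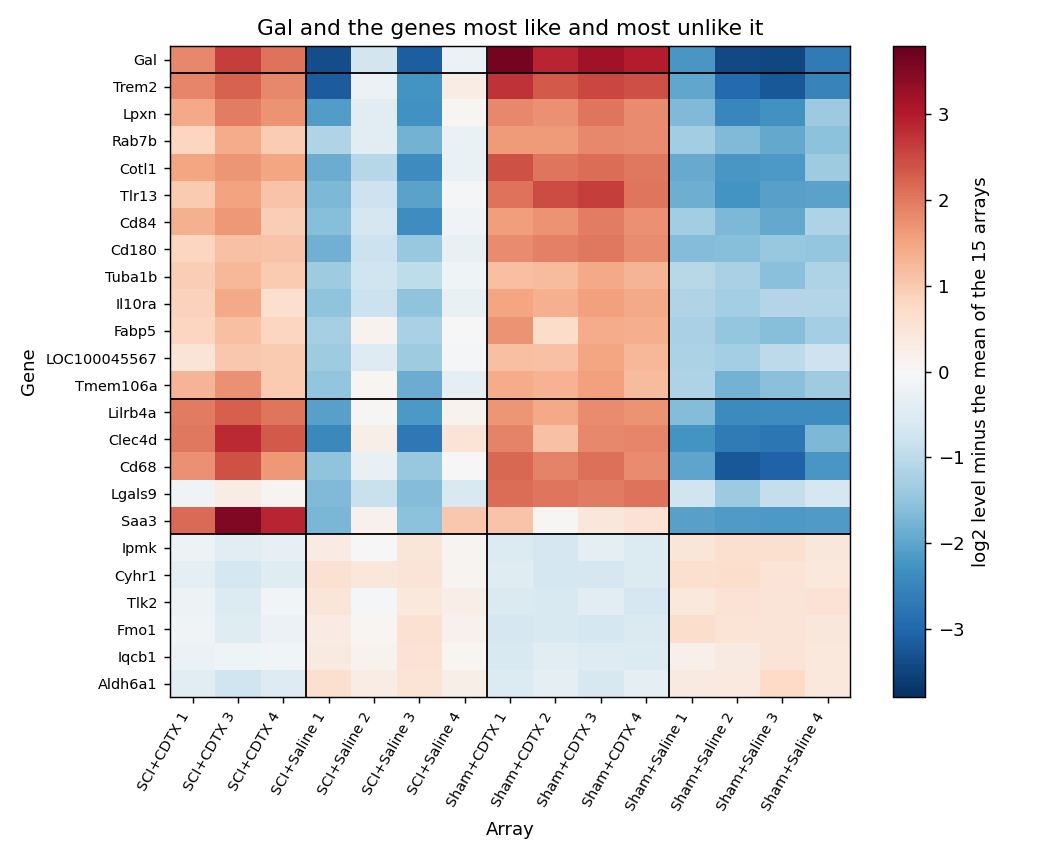
Log2 level minus the mean of the 15 arrays (colour) for Gal, the 12 genes most like it, the 5 further genes most like it within groups and the 6 most unlike it (rows, separated by lines), by array. Gal and the genes most like it are high on all cardiotoxin arrays, and SCI+Saline replicates 2 and 4 lie above replicates 1 and 3.

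A likeness over 4 groups mostly restates which genes rise with cardiotoxin, so the deviations of each array from its group mean were compared as well. By these, Trem2 was again closest (r = 0.977 over 15 arrays). Next were Lilrb4a (0.955), an inhibitory receptor of myeloid cells, Lpxn (0.950), Clec4d (0.948), a C-type lectin of myeloid cells, Cd68 (0.932), a lysosomal protein that marks macrophages, Lgals9 (0.918), a galectin, Saa3 (0.917), an acute-phase apolipoprotein, and Fabp5 (0.911). Of the 10951 genes, 11 had r over 0.9 and 99 over 0.8. The SCI+Saline group held 82.2% of the within-group sum of squares of Gal, so these values rest largely on its 4 arrays. Without them, over 11 arrays, r was 0.950 for Trem2 and 0.930 for Cd68 but 0.761 for Lpxn, 0.760 for Lilrb4a, 0.723 for Clec4d and 0.634 for Saa3. Most of the Gal spread left there was that of Sham+Saline, with 10.9% of the sum of squares. SCI+CDTX held 3.65% and Sham+CDTX 3.28%. Gal lay near the detection limit in Sham+Saline muscle, where Gal and Trem2 were each detected on 2 of 4 arrays. With 16 arrays the r of Lgals9 was 0.386.

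Not every gene of the rise shared these deviations. Spp1, the secreted matrix protein osteopontin, was 8.65, 11.27, 7.60 and 11.31 in SCI+Saline replicates 1 to 4, the same split as Gal. In Sham+Saline replicates 1 to 4 it was 7.43, 6.23, 6.79 and 10.23, and replicate 4 stood far above the others. The normalized Gal level of replicate 4 was 5.07, below replicate 1, while its raw Gal intensity was 107.0 against 104.9. The mean of 6 neutrophil genes was also high on Sham+Saline replicate 4 (9.57, against 4.43 to 4.88 on the other arrays of its group) and on SCI+Saline replicate 4 (9.43, against 5.86 to 6.38). It was 6.10 on SCI+Saline replicate 2, where the Gal level was 7.08. The mean of 11 macrophage genes was 8.29 and 8.73 on SCI+Saline replicates 2 and 4 and 7.26 and 6.68 on replicates 1 and 3. These 11 include Trem2, Cd68, Gpnmb and Spp1, which were named for their likeness to Gal or their sham rise. The part of either cell type in the Gal level was not tested.

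**Figure D4:**
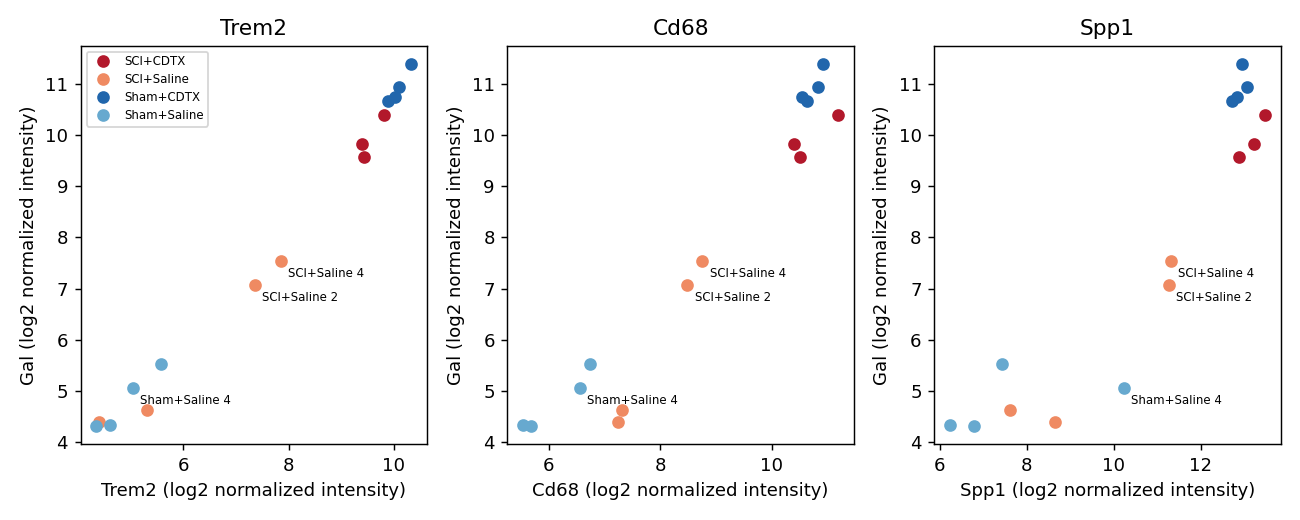
Gal against Trem2, Cd68 and Spp1 (log2 normalized intensity), with 1 point for each of 15 arrays, coloured by group. The points of SCI+Saline replicates 2 and 4 lie between the saline and cardiotoxin clusters in each panel, and Sham+Saline replicate 4 has a Spp1 level of 10.23 at a Gal level of 5.07.

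The receptors of galanin were not detected. Galr1, Galr2 and Galr3 have 1 probe each, and these passed the detection limit on 0 of 16 arrays, with highest intensities of 106.3, 108.0 and 107.0. No probe was named for Galp, the galanin-like peptide. These values say that the receptors were not detectable with these probes.

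Of the other neuropeptides that could be tested, Npy was called higher with cardiotoxin in both comparisons, by far less than Gal. Of the 18 neuropeptide genes listed, 5 were measurable in enough arrays to be tested. In cord-injured mice 1 of these was called higher and 0 lower with cardiotoxin (median log2 difference 0.05, beside -0.04 over all genes). In sham mice 1 was higher and 1 lower (median -0.03, beside -0.05). With 5 genes, these counts cannot be set apart from the shares over all genes (22.1% higher and 22.2% lower, then 23.7% and 26.9%). Npy, the neuropeptide Y gene, was higher by 0.59 (limma adjusted p 0.00515) and 0.51 (limma adjusted p 0.00683). It was detected on 2 SCI+CDTX, 4 Sham+CDTX and 0 saline arrays. Set against the lowest detected signal, the mean level was 1.11-fold higher in cord-injured and at least 1.04-fold higher in sham mice. The former is not a lower bound, since not all SCI+CDTX arrays detected Npy. The Npy call in cord-injured mice was lost without SCI+CDTX replicate 3 (0.37, limma adjusted p 0.0642). Nmb, the neuromedin B gene, was lower in sham mice by 0.49 (limma adjusted p 0.0192), a call lost with median scaling (0.403). Calca, Pdyn and Adm, which encode calcitonin gene-related peptide, prodynorphin and adrenomedullin, lay between -0.24 and 0.17 in both comparisons and were not called. Vip, Tac1 and Sst were detected on 0 arrays.

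Of 12 genes that cut, amidate or store peptide precursors, 4 could be tested. In cord-injured mice limma called 0 of them in either direction (1 was higher at an unadjusted p under 0.05). In sham mice Furin, a broadly expressed precursor protease, was higher with cardiotoxin by 0.97 (limma adjusted p 0.000592), and Pam, the enzyme that amidates the end of many peptides, was lower by 1.18 (limma adjusted p 5.13e-06). Furin lost its call with the probe score as covariate (0.15) and Pam with median scaling (0.0521). Pcsk1n and Scg3, proteins of secretory granules, lay between -0.21 and 0.19 in both comparisons and were not called. Counts out of 4 genes cannot be set apart from the shares over all genes (22.1% higher and 22.2% lower, then 23.7% and 26.9%).

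Of the gp130 family of cytokines and signalling proteins, Lif, the known galanin inducer, was detected on 0 of 16 arrays by any of its 3 probes and Il6 on 2. In cord-injured mice 2 of the 11 genes tested were higher with cardiotoxin and 2 lower (median -0.03), no larger a share than the 22.1% and 22.2% over all genes. Osm, the cytokine oncostatin M, was higher by 1.73 (limma adjusted p 1.63e-05) and Socs3, a feedback inhibitor of this signalling, by 1.56. Ctf1, cardiotrophin 1, was lower by 1.39 (limma adjusted p 3.01e-05) and the kinase Jak1 by 0.70. The Jak1 call was lost with all 16 arrays (-0.21, limma adjusted p 0.665). In sham mice 2 genes were higher and 1 lower (median 0.07), also below the 23.7% and 26.9% over all genes: Osm by 0.76 (limma adjusted p 0.0073), the receptor chain Il6ra by 0.67, and Ctf1 lower by 1.65 (limma adjusted p 9.47e-07). Osm and Il6ra were not detected on any Sham+Saline array, so they were at least 1.41-fold and at least 1.12-fold higher. Osm lost this call with no background correction (0.0507) and Il6ra with the probe score (0.707).

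Osm and Gal ranked the cardiotoxin groups differently. Osm was 5.88, 6.54 and 6.77 in SCI+CDTX replicates 1, 3 and 4 and 5.50, 5.18, 5.17 and 5.24 in Sham+CDTX replicates 1 to 4. These SCI+CDTX levels of Osm were above all Sham+CDTX levels, whereas those of Gal were all below. SCI+CDTX replicate 2 is not among them. Its raw Osm intensity was 136, beside 163 to 214 on the other SCI+CDTX arrays and 128 to 132 in Sham+CDTX muscle. The groups lie on different BeadChips, and what gave this difference was not tested.

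Among 13 genes known to respond in neurons or Schwann cells to nerve injury, 10 could be tested. In cord-injured mice 1 was called higher with cardiotoxin and 2 lower (median -0.23), and in sham mice 3 were higher and 0 lower (median 0.18). Counts this small cannot be set apart from the shares over all genes (22.1% higher and 22.2% lower, then 23.7% and 26.9%). Atf3, a stress transcription factor, was higher by 0.76 in cord-injured and 1.71 in sham mice, and the former call was lost in several alternatives (limma adjusted p 0.127 with no detection filter). In sham mice Gap43, a growth cone protein, was higher by 0.69 and Gdnf, a neurotrophic factor, by 0.81. Gap43 was not detected on any Sham+Saline array and was at least 1.20-fold higher. Both lost the call with the probe score (limma adjusted p 0.175 and 0.0722). Gadd45a, a stress-response gene, and Artn, a ligand of the Gdnf family, were lower in cord-injured mice by 0.79 and 0.49. Gadd45a lost the call without SCI+CDTX replicate 4 (limma adjusted p 0.0578) and Artn with median scaling (0.0757).

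Few neuronal and Schwann cell markers could be tested, and limma called 0 of them. Counts of 3 and 4 genes cannot be set apart from the shares over all genes (22.1% higher and 22.2% lower, then 23.7% and 26.9%). Of 9 neuronal genes, Snap25, Syt1, Nefl, Nefm, Prph and Elavl4 were detected on 0 arrays. The 3 that could be tested, Tubb3, Uchl1 and Syp, were called by limma in 0 cases in either comparison (at an unadjusted p under 0.05, 0 in cord-injured mice and, in sham mice, 1 higher and 1 lower). Their mean level was 5.04 to 5.24 in SCI+CDTX, 5.08 to 5.45 in SCI+Saline, 5.09 to 5.26 in Sham+CDTX and 4.85 to 5.67 in Sham+Saline muscle. Of 9 Schwann cell genes 4 could be tested and 0 were called (1 lower at an unadjusted p under 0.05 in cord-injured mice, 0 in sham mice). Their mean level was 8.28 to 9.71, 7.86 to 9.19, 8.32 to 9.79 and 9.02 to 9.54 in the same order of groups.

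Macrophage markers were higher with cardiotoxin in both comparisons, as Gal was. Of the 12 listed genes 11 could be tested, and limma called all 11 higher in cord-injured and in sham mice, with medians of 2.65 and 3.89. Over all genes 22.1% and 23.7% were called higher, with medians of -0.04 and -0.05. The macrophage count was 11 in every alternative run and with each array left out. Of the listed genes Ccr2, the receptor of recruited monocytes, was detected on 0 arrays. Lyz2, the macrophage lysozyme, was higher by 3.51 and 3.89, Cd68 by 2.75 and 4.61, Adgre1, which encodes the F4/80 antigen, by 2.65 and 3.45, and the complement gene C1qa by 2.11 and 2.72. The 11 differences ran from 1.09 to 3.51 in cord-injured and from 0.58 to 5.92 in sham mice, where the choice of Gal as the largest rise places every other gene below it. The mean level of the list over 16 arrays was 9.82 to 10.62 in SCI+CDTX, 6.68 to 8.73 in SCI+Saline, 10.52 to 10.66 in Sham+CDTX and 6.40 to 7.16 in Sham+Saline muscle. SCI+CDTX replicate 2, lowest for Gal among the cardiotoxin arrays, was lowest for this list as well. The list holds Trem2, Gpnmb and Spp1, and it was chosen with earlier results of these samples known, so its direction is not independent evidence. Its part in the Gal result was not tested.

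The counts for other cell type lists are read against 22.1% higher and 22.2% lower over all genes in cord-injured mice and 23.7% and 26.9% in sham mice. Of 10 genes of fibroadipogenic progenitors, the connective tissue cells of muscle, 8 were higher and 0 lower in cord-injured mice and 7 were higher and 1 lower in sham mice (medians 1.00 and 0.65). Of 6 neutrophil genes tested, 2 were higher and 0 lower in either comparison. Of 8 muscle fibre genes, 0 were higher and 1 lower in cord-injured mice and 2 higher and 1 lower in sham mice, and of 8 endothelial genes, 2 higher and 0 lower, then 0 higher and 4 lower. Of 4 mast cell genes, 0 were called in cord-injured mice (2 higher at an unadjusted p under 0.05 in limma) and 2 were higher in sham mice. The 2 lymphocyte genes tested were both higher in cord-injured mice and not called in sham mice by limma (0 at an unadjusted p under 0.05). Of 3 muscle precursor genes, 1 was lower in cord-injured mice and 2 were higher in sham mice.

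**Figure D5:**
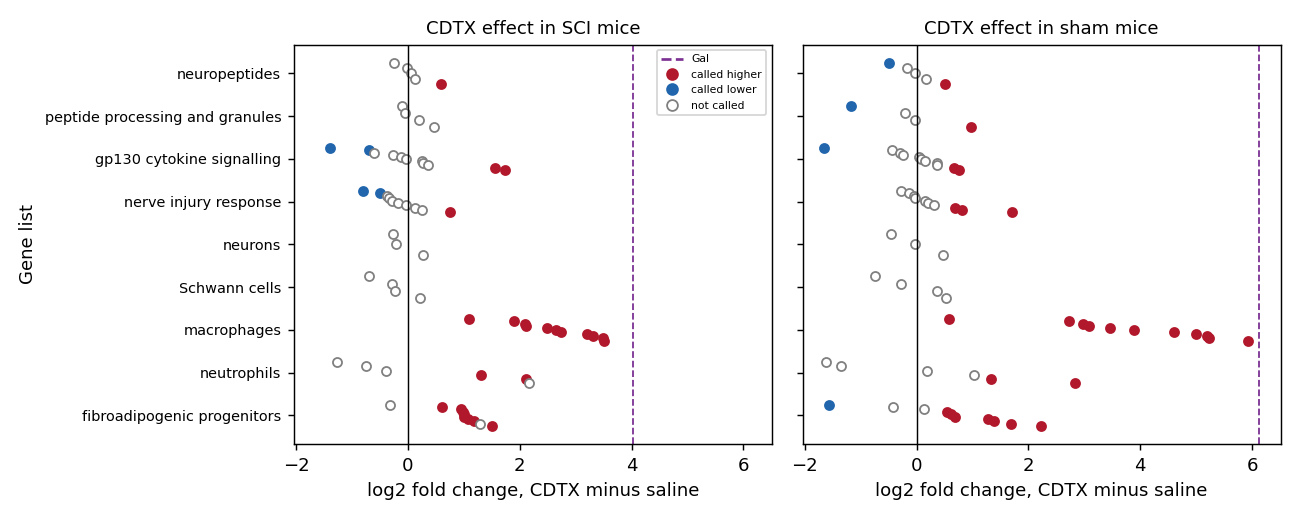
Log2 difference between cardiotoxin and saline muscle for each gene of 9 lists that could be tested, in cord-injured (left) and sham mice (right). Filled points were called by limma (red higher, blue lower), open points were not, and the dashed line marks Gal at 4.03 and 6.12. All 11 macrophage points are called higher, and the peptide, gp130, nerve injury, neuron and Schwann cell points lie between -1.65 and 1.73.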

How the data were processed

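Per the file headers, the authors exported the data from Illumina software, and GenomeStudio 2011.1 is named in the submitters' processing notes. The deposited table holds non-normalized intensity values, detection p-values and the bead standard error, a signal spread per probe, all as the authors exported them. A second table holds the authors' intensity values as group means of 15 arrays, with average given as the normalization per the file headers. Whether background was subtracted is not stated outright there. All arrays hold 25697 probes, and their number limits the precision.

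The intensities of 15 arrays were corrected and quantile normalized with limma 3.58.1 (neqc, offset 16, background from detection p-values) in R 4.3.3. The fit held every probe that 3 or more arrays detected, taking 0.05 as the limit of the detection p (14763 probes, 10952 genes, the brightest probe per gene). Groups came from the labels. In limma, 1 model with the 4 groups as means took in these probes together, and p-values were adjusted over them by Benjamini-Hochberg, with 0.05 as threshold. A difference is called where it passes this. Symbols were updated through Entrez identifiers (23681 probes matched, 4172 changed). A bound for a gene below detection in a group used the lowest detected signal per array. Figures were drawn with matplotlib.

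Gal was chosen on the sham cardiotoxin comparison, and the gene lists and rules were chosen with earlier results of these data known. Besides Gal, the genes named were the 12 most and 6 least like it, the 8 most like it within groups, the 3 next in the sham rise, the tested members of the galanin, neuropeptide, peptide processing, gp130 and nerve injury lists, and up to 4 genes per cell type list. Undetected list members and the macrophage genes at the ends of a range are named outside that rule. Samples were not paired by replicate number in the fit. Deviations of 21 same-numbered pairs correlated at -0.27 to 0.38, with 3 over 0.1, and those of 63 other pairs at -0.28 to 0.32. With so few arrays per group this check cannot show whether a pairing exists. Alternatives were other arrays, normalization, background, filters, variance model, covariates and each array left out.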

Additional observations from a re-analysis of the deposited data

Results flagged for a closer look

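The Gal intensity of 484 in SCI+CDTX replicate 2, an array outside the 15 of the comparisons, lay above all saline arrays.

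Among the genes named beside Gal, 61 groups of 4 arrays were examined for an array far from the others, and 4 had one, where chance gives about 1 in 20. The gap to the nearest array was 0.843 of the range for Il10ra in Sham+Saline replicate 2, 0.970 for Lilrb4a and 0.851 for Saa3 in Sham+Saline replicate 1, and 0.927 for Clec4d in Sham+CDTX replicate 2. Il10ra and Saa3 were detected on 0 of 4 Sham+Saline arrays, so their gaps lie within background signal. Lilrb4a was detected on 1 of these arrays.

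For the 37 tested genes of the gp130, peptide, nerve injury and macrophage lists that were not also chosen by their likeness to Gal or their sham rise, the cardiotoxin difference in cord-injured mice minus that in sham mice was tested with the limma interaction term, adjusted over all probes. Over all genes 13.8% were called higher and 11.6% lower by this term, and 9 of the 37 were called. The term was 1.13 for Pam, 2.01 for Socs3, 0.97 for Osm, -0.92 for Il6ra, -1.07 for Jak1, -0.57 for Gap43, -1.18 for Gdnf, -1.07 for Csf1r and -2.51 for Ms4a6d. All 9 lost the call with the probe score as covariate. That score is high only in Sham+CDTX samples and SCI+CDTX replicate 2, so it can hardly be told apart from the group. Gap43 lost it in 17, Osm in 12 and Csf1r in 12 of 25 alternatives, including that with all 16 arrays (limma adjusted p of 0.314 for Osm), and Ms4a6d in 3. Jak1 lost it with all 16 arrays (-0.58, limma adjusted p 0.466). For the genes chosen by likeness to Gal or by their sham rise this term is partly fixed by the choice, so it is not given. Sham and cord-injured samples lie on different BeadChips, and what gave these differences was not tested.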

How the results depend on the processing

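The cardiotoxin difference of Gal in cord-injured mice kept its direction and its limma call in every alternative run, from 2.75 with no background correction to 4.13 with median scaling, and from 3.50 to 4.57 with each array left out (largest adjusted p 0.000342). The sham difference was 4.22 with no background correction, 4.98 with an offset of 50 and 7.63 with the probe score as covariate and 16 arrays. With that score the difference between the cardiotoxin groups was -2.68 and the interaction -3.89. The score nearly coincides with the Sham+CDTX group, so values with it rest largely on SCI+CDTX replicate 2. With each array left out the ranges were 5.95 to 6.38 (sham), -1.24 to -0.83 (cord injury in cardiotoxin muscle), 0.55 without SCI+Saline replicate 4 to 1.60 without SCI+Saline replicate 1 (cord injury in saline muscle) and -2.59 to -1.54 (interaction). With the score the interactions of Osm and Jak1 turned sign, to -0.41 and 1.12. The cause of these changes was not tested. With the replicate number as a block (replicate block) the difference in cord-injured mice was 4.07, and the check of pairing gave 3 of 21 same-numbered and 12 of 63 other pairs over 0.1. Median scaling moved the median of all probes to 0.32 in the sham and 0.06 in the cord-injured comparison. The BeadChip as a fixed block could not be fitted because it is the surgery, and no second Gal probe was there to try. Of the values for single genes named with Gal, 2428 kept direction and call, 124 lost the call and 2 reversed. Leaving out arrays for gene list counts, and trying alternatives for named genes, was chosen after seeing the data. Signal over background limits Gal in saline muscle, where 4 of 8 arrays did not detect it.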
